A study of Homo sapiens with 12 samples.

Results

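The genes described here are MYC with its dimer partner MAX, the D cyclins CCND1 and CCND3, the E cyclins CCNE1 and CCNE2, the kinases CDK2, CDK4 and CDK6, and the kinase inhibitor CDKN1B. They were chosen by name, as the machinery that carries cells from G1 into S phase, and several of them have been reported to depend on eIF4A. Each of the 10 genes was found on 1 transcript, out of 19038 transcripts in the RNA table and 19037 in the footprint table. The samples were tumours of 22Rv1, a human prostate cancer cell line, grown under the skin of male NSG mice, which lack lymphocytes but keep myeloid and stromal cells. Tumours received zotatifin (0.3 mg/kg, intraperitoneal) or the vehicle that both groups shared, 5% dextrose, and were harvested at 6 h. Ribosome footprints and RNA were sequenced from 3 tumours of each treatment, giving 4 groups of 3 and 12 libraries. All tumours derive from 1 cell line, and nothing in the labels says which mouse carried which tumour.

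Zotatifin locks eIF4A, the helicase of the cap-binding complex, onto purine-rich stretches of mRNA leaders, so that scanning ribosomes do not reach the start codon. MYC pairs with MAX to bind the E-box and to drive genes of growth. In G1, D cyclins activate CDK4 and CDK6, and E cyclins then activate CDK2, while CDKN1B (p27) binds and restrains CDK2. MYC and the G1 cyclins are short-lived proteins, and their synthesis has often been studied with eIF4A inhibitors.

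The RNA libraries held 6594884 to 8153674 counts with zotatifin and 5761921 to 7121802 with vehicle, and the footprint libraries 838135 to 1540867 with zotatifin and 1592316 to 2013968 with vehicle. All levels below are CPM, counts scaled to the library total, after TMM scaling within an assay, and a shift common to every mRNA is therefore removed. All 12 markers of prostate cancer cells, among them KLK2 and KLK3, were detected in every group. Reads of mouse cells were not separated. The summed footprints of 10 fibroblast markers ran from 140.4 to 257 CPM with zotatifin and from 461 to 794 CPM with vehicle, and none of these 10 genes was at 0. Those of 8 myeloid markers ran from 28.5 to 54.0 CPM with zotatifin, where CD14 and FCGR3A were at 0, and from 63.8 to 294 CPM with vehicle, where CD163 was at 0 as well. Summed RNA of the fibroblast markers ran from 69.2 to 132 CPM with zotatifin and from 216 to 362 CPM with vehicle. That of the myeloid markers ran from 11.1 to 20.6 CPM with zotatifin and from 16.0 to 49.7 CPM with vehicle. Sums of 6 endothelial and of 6 red blood cell markers overlapped between treatments in both assays. The part of these cell types in the results below was not tested. In bulk tumours fewer cells of a type and less RNA per cell cannot be told apart.

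None of the 10 genes was called in footprints, in RNA or in translational efficiency (TE, footprints relative to RNA). A call means an adjusted p under 0.05 by the quasi-likelihood test of edgeR, with Benjamini-Hochberg adjustment over all genes tested. Over all genes, 7.14% were called in footprints, 1.72% in RNA and 1.69% in TE. At these shares 0 calls among 10 genes is near the background, so the count does not set these genes apart. At an unadjusted p under 0.05 there were 2 of the 10 in footprints (CCND1 and CCNE2), against 22.1% of all genes. There were likewise 2 in RNA (MYC and CDK6), against 18.3%, and 0 in TE, against 15.3%. TE values are from a fit that does not pair the footprint and RNA libraries of a tumour, except where a tumour block is named. The lowest adjusted p of a gene in the set was 0.0530 in footprints, 0.180 in RNA and 0.363 in TE.

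The size of change that the data still allow is given by the 95% interval of each fitted fold, not adjusted for the number of genes. In TE, 9 of the 10 intervals lay wholly above 0.5-fold, so for those genes a halving of ribosome load per mRNA, relative to other mRNAs, lay outside the interval. The exception was CCNE1. In footprints 9 of 10 intervals lay above 0.5-fold, again without CCNE1, and in RNA all 10. The share of all genes with such an interval was not computed, so these counts do not set the 10 genes apart. Over all genes tested the median SE of a log2 change was 0.19 in footprints, 0.17 in RNA and 0.25 in TE. The median log2 change of the 10 genes was −0.01 in footprints, 0.01 in RNA and −0.16 in TE, beside medians of 0.00, 0.00 and 0.02 over all genes tested. Values with zotatifin and with vehicle did not overlap for 4 of the 10 genes in footprints (26.4% of all genes), 4 in RNA (23.1%) and 2 in TE (26.3%).

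**Figure D1:**
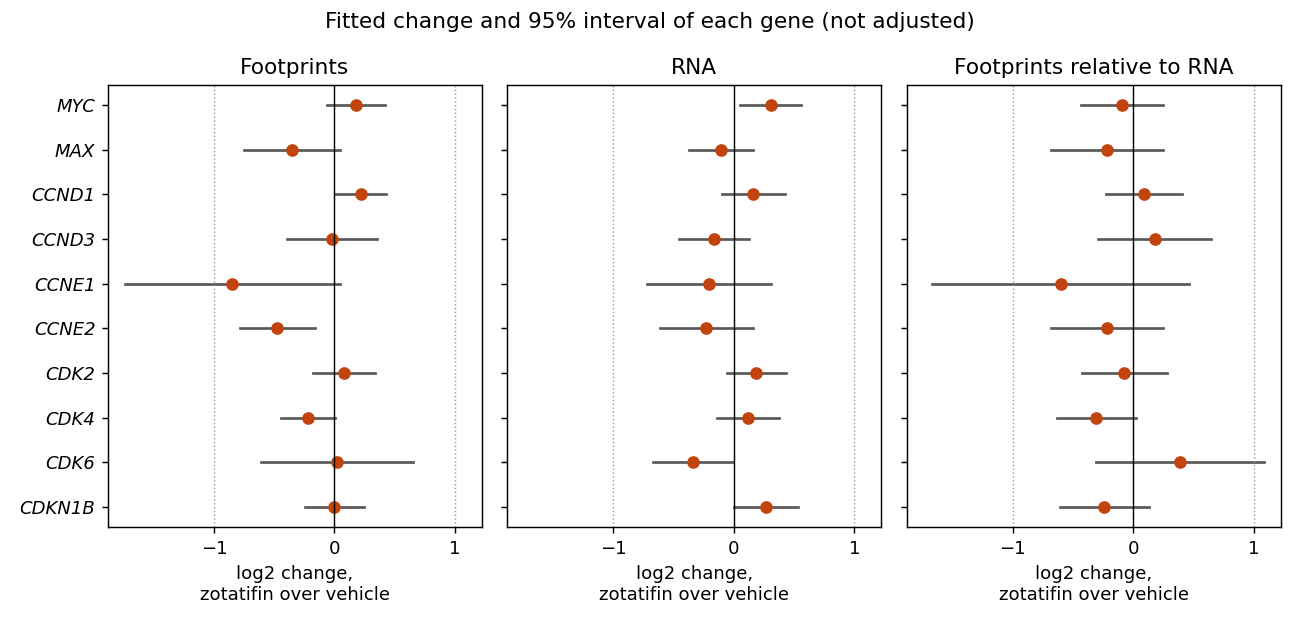
Fitted log2 change, zotatifin over vehicle (x axis), of each gene (y axis) in footprints, RNA and TE. Points are estimates over 3 tumours a treatment, bars their 95% intervals without adjustment, and dotted lines mark a doubling and a halving. The intervals of CCNE1, which had 2 to 20 footprints and 47 to 90 RNA counts per library, are the widest in footprints, RNA and TE. Its footprint estimate of −0.85 is the lowest of the 10.

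MYC, the transcription factor at the head of the set (ENST00000613283, chromosome 8, 127735434 to 127742951, GRCh38.p14), was not called in any of the comparisons. Its footprint level was 204, 229 and 177 CPM in the zotatifin tumours, against 162, 183 and 191 CPM in the vehicle tumours. In zotatifin tumours 1 and 2 the level was above every vehicle value, in tumour 3 it was not, so the groups overlapped, and the log2 change was 0.18 ± 0.12 (SE, adjusted p = 0.401). That estimate ran from 0.097 (without zotatifin library 2) to 0.28 (without zotatifin library 3) when single libraries were left out. MYC RNA stood at 309.8, 362 and 307 CPM with zotatifin, against 262, 278 and 252 CPM with vehicle. Here every zotatifin tumour was above every vehicle tumour, but the log2 change of 0.30 ± 0.12 did not pass the test (adjusted p = 0.180, 95% interval of the fold 1.04 to 1.47). Footprints per RNA came to ratios of 0.658, 0.633 and 0.578 with zotatifin, against 0.616, 0.658 and 0.758 with vehicle. That is a TE change of −0.09 ± 0.16 on the log2 scale (adjusted p = 0.833), and the 95% interval of the fold reached from 0.741 to 1.18.

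MAX, the partner without which MYC does not bind DNA (ENST00000358664, chromosome 14, 65006101 to 65102695), was measured on few footprints, 21 to 47 per zotatifin library and 54 to 69 per vehicle library. Its footprint level was 21.7, 25.8 and 30.4 CPM with zotatifin, against 33.9, 32.7 and 34.3 CPM with vehicle. All 3 zotatifin values were below the vehicle values, yet the log2 change of −0.35 ± 0.20 missed the threshold (adjusted p = 0.298). MAX RNA was 50.1, 53.4 and 54.0 CPM with zotatifin and 58.8, 56.0 and 54.8 CPM with vehicle, also without overlap (log2 change −0.11 ± 0.13, adjusted p = 0.699). The ratio of footprints to RNA was 0.433, 0.482 and 0.563 with zotatifin and 0.577, 0.585 and 0.626 with vehicle, again without overlap. The TE change of −0.22 ± 0.23 did not pass the test (adjusted p = 0.694).

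CCND1, cyclin D1 (ENST00000227507, chromosome 11, 69641156 to 69654474), was the most deeply counted gene of the set, with 1061 to 1975 footprints per zotatifin library and 1851 to 2149 per vehicle library. Its footprint level was 1228, 1301 and 1277 CPM with zotatifin, against 1056, 1027 and 1186 CPM with vehicle. The zotatifin tumours all lay above the vehicle tumours, with a log2 change of 0.22 ± 0.10 (adjusted p = 0.191) and a 95% interval of the fold from 1.01 to 1.34. CCND1 RNA was 3745, 3309.8 and 3789 CPM with zotatifin and 3424, 3193 and 3077 CPM with vehicle, and the groups overlapped (log2 change 0.16 ± 0.13, adjusted p = 0.520). The ratio of footprints to RNA ran from 0.328 to 0.393 with zotatifin and from 0.308 to 0.385 with vehicle. The TE change was 0.09 ± 0.15 (adjusted p = 0.834), with an interval of the fold from 0.855 to 1.32. A fall of CCND1 TE with zotatifin to below 0.855-fold of its vehicle value lay outside that interval.

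CCND3, cyclin D3 (ENST00000372991, chromosome 6, 41934933 to 42050035), had 30 to 47 footprints per zotatifin library and 51 to 78 per vehicle library. Its footprint level was 37.3, 36.8 and 30.4 CPM with zotatifin and 38.3, 33.3 and 32.4 CPM with vehicle, values that overlapped widely (log2 change −0.02 ± 0.18, adjusted p = 0.963). CCND3 RNA averaged 43.3 ± 3.91 CPM with zotatifin and 48.5 ± 4.75 CPM with vehicle (SD, n = 3 each; log2 change −0.17 ± 0.14, adjusted p = 0.556). Its TE change was 0.18 ± 0.23 (adjusted p = 0.763). For both D cyclins the TE estimate was positive and its interval contained 0.

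**Figure D2:**
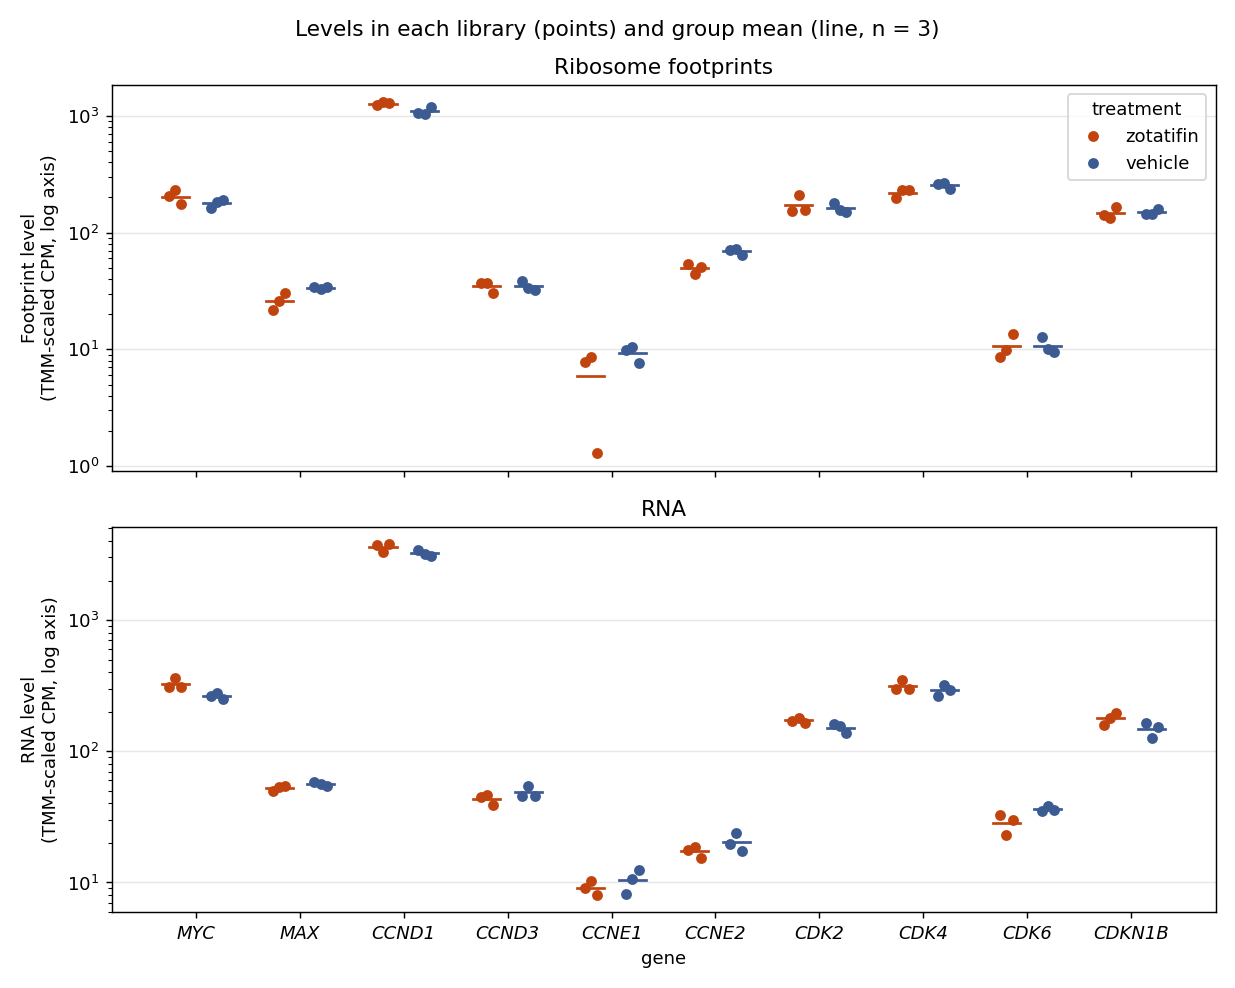
Level of each gene (x axis) in footprints (upper panel) and RNA (lower panel) in TMM-scaled CPM on a log axis. Points are single libraries, zotatifin left of vehicle, and lines are group means of 3. CCND1 averaged 1269 footprint CPM with zotatifin and 1090 with vehicle, and 1 zotatifin library of CCNE1 lies apart at 1.29 CPM. Heights are not comparable between genes, since they are not divided by length.

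The E cyclins had the lowest footprint estimates of the set. CCNE2, cyclin E2 (ENST00000308108, chromosome 8, 94880224 to 94896693), had 53.8, 44.1 and 51.1 footprint CPM with zotatifin, against 71.3, 72.7 and 64.8 CPM with vehicle. Every zotatifin value was below every vehicle value, and the log2 change of −0.47 ± 0.15 came close to the threshold without passing it (adjusted p = 0.0530, fold 0.720, 95% interval 0.581 to 0.893). Over the 10 other settings its log2 change ran from −0.53 to −0.41 and its adjusted p from 0.0504 to 0.175, so the gene was called under none of them. CCNE2 RNA was 17.8, 18.7 and 15.3 CPM with zotatifin and 19.6, 23.7 and 17.5 CPM with vehicle, with overlap (−0.23 ± 0.19, adjusted p = 0.537). The footprint-to-RNA ratio was 3.03, 2.36 and 3.33 with zotatifin and 3.64, 3.06 and 3.70 with vehicle. The groups overlapped, and the TE change was −0.22 ± 0.23 (adjusted p = 0.698).

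CCNE1, cyclin E1 (ENST00000262643, chromosome 19, 29811991 to 29824312), was near the limit of what these libraries can measure. It had 9, 7 and 2 footprints in the zotatifin libraries, against 20, 19 and 12 in the vehicle libraries. These are 7.81, 8.58 and 1.29 CPM with zotatifin and 9.83, 10.5 and 7.62 CPM with vehicle. The groups overlapped, and the log2 change of −0.85 ± 0.44 was not called (adjusted p = 0.252). It rests on zotatifin library 3, which had the 2 footprints: without it the log2 change was −0.21 (adjusted p = 0.837). CCNE1 RNA averaged 9.14 ± 1.11 CPM with zotatifin and 10.5 ± 2.16 CPM with vehicle (SD, n = 3 each; log2 change −0.20 ± 0.25, adjusted p = 0.704). The TE change of −0.60 ± 0.52 (adjusted p = 0.624) had a 95% interval of the fold from 0.315 to 1.38, and without zotatifin tumour 3 it was −0.06. At this depth a halving and an unaltered TE of cyclin E1 cannot be told apart.

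CDK4, the kinase partner of the D cyclins (ENST00000257904, chromosome 12, 57747727 to 57752310), had footprint and RNA estimates on opposite sides of 0, neither of them called. Its footprint level was 198, 229 and 231 CPM with zotatifin, against 260.0, 267 and 238 CPM with vehicle. All zotatifin values lay below all vehicle values, with a log2 change of −0.22 ± 0.11 (adjusted p = 0.235). CDK4 RNA was 300.2, 351 and 298 CPM with zotatifin and 265, 317 and 292 CPM with vehicle, which overlapped (0.12 ± 0.12, adjusted p = 0.645). The footprint-to-RNA ratio was 0.659, 0.653 and 0.774 with zotatifin, against 0.981, 0.842 and 0.815 with vehicle. The ratios did not overlap, but the TE change of −0.31 ± 0.16 did not pass the test (adjusted p = 0.363, fold 0.808, 95% interval 0.644 to 1.01).

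In the authors' deposited table of the footprint comparison, whose estimate is read below as a TE change, CDK4 was the single gene of the 10 with an FDR under 0.05 (FDR = 0.0246). The estimate there was −0.15, read as a natural log, which is −0.22 on the log2 scale or 0.860-fold. That table gives an FDR for 11446 genes, and 18.3% of these had an FDR under 0.05. The authors' deposited table gave MYC a fold of 0.992 (FDR = 0.949), CCND1 1.05 (FDR = 0.136) and CDKN1B 0.880 (FDR = 0.175). No header gives its scale. A regression over 1566 well-counted genes (mean above 200 in each assay) gave a weight of 0.665 to the fitted change of footprints and of −0.666 to that of RNA, close in size to ln 2 (0.693), which is how a TE change in natural logs would behave. With the tumour as a block, which pairs each footprint library with the RNA of the same tumour, the test across all genes called 8.66% in place of 1.69%. None of the 10 genes was called with that block either, the nearest being CDK4 (−0.30 ± 0.12, adjusted p = 0.106). The 95% interval of the CDK4 fold narrowed to 0.688 to 0.958 and no longer held 1. At an unadjusted p under 0.05 the block gave 1 of the 10 genes (CDK4), against 22.1% of all genes. With the block 9 of the 10 intervals again lay above 0.5-fold, a count whose share over all genes was not computed.

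CDK4 is a textbook MYC target, and MYC with MAX binds the E-box, CACGTG. Its promoter is shown because it joins both arms of this gene set. The 250 bases before the RefSeq start of CDK4 (GRCh38.p14, minus strand, chr12:57752311-57752560) are printed 5′ to 3′, with each E-box in capitals.
CDK4: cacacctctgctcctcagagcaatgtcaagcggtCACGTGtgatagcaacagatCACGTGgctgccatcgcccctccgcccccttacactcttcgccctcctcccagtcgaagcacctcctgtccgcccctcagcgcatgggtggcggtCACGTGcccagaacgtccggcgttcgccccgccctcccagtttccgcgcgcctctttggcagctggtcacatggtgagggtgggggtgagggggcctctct
The motif reads the same on both strands, and its first base lies 216, 196 and 101 bases before the start. It occurred at least once in 6.34% of the 35116 windows of this length in the RefSeq table and at least 3 times in 28 of them. RefSeq windows were matched for 6 of the 10 genes (10 windows), and CDK4 was the one of the 6 with an E-box before a start. In 1 of its windows CDK6 has an E-box after the start, from transcribed base 31, and with those bases counted 7.26% of all windows hold at least 1. A match is a description of these letters, and no binding was measured here.

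The same table gives the first 50 transcribed bases, where a purine run could lie. The longest run of A or G there is shown in capitals within 30 bases for the 3 genes with a single RefSeq start, since purine runs are the stretches that zotatifin is known to hold eIF4A on.
CDK4: ctgtgtctatggtcGGGccctctgcgtcca
CDKN1B: ccaccgccatattgggccactAAAAAAAGG
CCNE1: ccagcgcggtgtAGGGGGcaggcgcggatc
The stretches lie at chr12:57752271-57752300 (minus strand), chr12:12717388-12717417 (plus strand) and chr19:29812011-29812040 (plus strand) of GRCh38.p14. The longest run was 3 bases in CDK4, 9 in CDKN1B and 6 in CCNE1. The CDKN1B run reaches the last of the 50 bases, so 9 is its least length and it may go on beyond them. Over all windows the median was 5, with 47.3% at 6 or more and 13.7% at 9 or more. The 50 bases cover only the first part of a leader, and RefSeq starts need not be those used in 22Rv1.

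CDK6, the other kinase of the D cyclins (ENST00000265734, chromosome 7, 92604921 to 92836573), had 10, 8 and 21 footprints in the zotatifin libraries and 26, 18 and 15 in the vehicle libraries. Its footprint levels of 8.68, 9.81 and 13.6 CPM with zotatifin and 12.8, 9.99 and 9.53 CPM with vehicle overlapped fully (log2 change 0.02 ± 0.31, adjusted p = 0.982). CDK6 RNA was 32.9, 23.2 and 29.8 CPM with zotatifin, against 35.0, 38.1 and 35.7 CPM with vehicle. All zotatifin values were below the vehicle values, and the log2 change of −0.34 ± 0.16 did not pass the test (adjusted p = 0.261). The TE change was 0.39 ± 0.34 (adjusted p = 0.631), with a 95% interval of the fold from 0.808 to 2.11. Leaving out single tumours moved it between 0.14 (without zotatifin tumour 3) and 0.64 (without zotatifin tumour 1).

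CDK2, the partner of the E cyclins (ENST00000266970, chromosome 12, 55966830 to 55972789), had a footprint level of 154, 209.7 and 155 CPM with zotatifin and 179, 155 and 150.0 CPM with vehicle. The groups overlapped, with a log2 change of 0.08 ± 0.13 (adjusted p = 0.775). CDK2 RNA was 171, 180.2 and 165 CPM with zotatifin, against 160.0, 155 and 139 CPM with vehicle, without overlap (0.19 ± 0.12, adjusted p = 0.422). The TE change of CDK2 was −0.08 ± 0.17 (adjusted p = 0.875), and the interval of its fold went from 0.744 to 1.21.

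CDKN1B, the inhibitor p27 (ENST00000228872, chromosome 12, 12717368 to 12722369), is the one brake in the set. Its footprints were 141, 134 and 166 CPM with zotatifin and 143, 143 and 160.1 CPM with vehicle, a log2 change of −0.0024 ± 0.12 (adjusted p = 0.994). CDKN1B RNA was 158, 179.6 and 195 CPM with zotatifin and 163, 126 and 154 CPM with vehicle. The groups overlapped, and the log2 change was 0.27 ± 0.13 (adjusted p = 0.273). Footprints per RNA were 0.889, 0.744 and 0.851 with zotatifin and 0.879, 1.14 and 1.04 with vehicle, with a TE change of −0.24 ± 0.18 (adjusted p = 0.558).

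The ratio of footprint to RNA CPM differed far more between the genes than between the treatments. In zotatifin tumours its geometric mean ran from 0.352 in CCND1 and 0.371 in CDK6 to 2.88 in CCNE2, and in vehicle tumours from 0.294 in CDK6 and 0.337 in CCND1 to 3.45 in CCNE2 (n = 3 each). CCNE2 stood above 93.7% of the genes tested in zotatifin tumours and above 94.5% in vehicle tumours. CCND1 stood above 15.4% of them with zotatifin and 15.8% with vehicle. MYC, at 0.622 with zotatifin and 0.675 with vehicle, was above 35.2% and 38.5% of genes. The 6 ratios of CCND1 and those of CDK6 overlapped, so that these neighbours at the low end have no settled order, while the lowest CCNE2 ratio, 2.36, was above the highest of any other gene of the set, 1.196 in CCNE1. The ratio depends on which part of a transcript was counted in each assay, which is not given in the sources used here, so an order between genes may also hold the share of each mRNA that is coding.

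**Figure D3:**
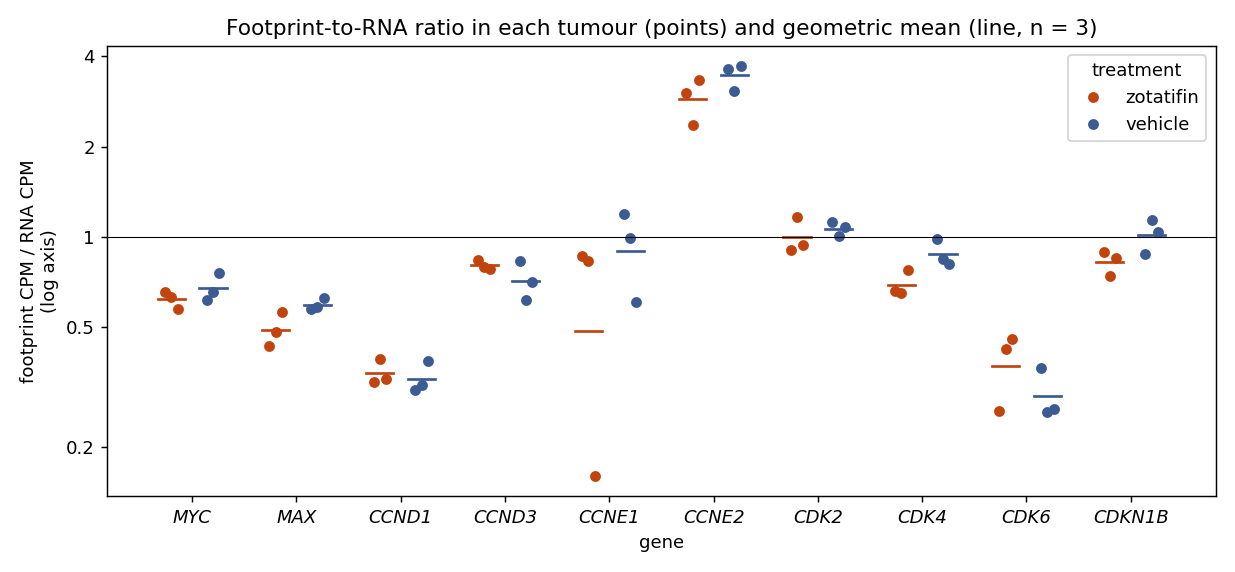
Ratio of footprint CPM to RNA CPM in each tumour (y axis, log scale) for each gene (x axis), with zotatifin left of vehicle and lines at the geometric mean of 3. The points of CDK4 and MAX do not overlap between treatments, and all 6 points of CCNE2 lie above 2.

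Around these genes, 6 lists of the same pathway were described in the same fits, by counts and medians. Of 17 partners and antagonists in the MYC network, 13 were tested in footprints, where 2 rose and 0 fell (median log2 change 0.18, against 0.00 over all genes). MXD3, a MAX-binding repressor that competes with MYC, had 51.2, 52.7 and 45.3 footprint CPM with zotatifin, against 28.5, 28.3 and 27.3 CPM with vehicle. The treatments did not overlap, and MXD3 rose in footprints (log2 change 0.81 ± 0.17, adjusted p = 0.0043), a call kept under all 10 other settings. Its RNA stood at 33.9, 40.3 and 31.1 CPM with zotatifin and 29.2, 23.7 and 25.9 CPM with vehicle (0.42 ± 0.16, adjusted p = 0.167), and its TE change was 0.43 ± 0.24 (adjusted p = 0.403). RUVBL2, an ATPase that acts as a cofactor of MYC, rose in footprints to 256 ± 10.8 CPM with zotatifin, against 197 ± 18.2 CPM with vehicle (SD, n = 3 each; 0.37 ± 0.11, adjusted p = 0.034). That call was lost without any 1 library but vehicle library 2 (adjusted p up to 0.214, without vehicle library 1). Neither RUVBL2 RNA (0.16 ± 0.13, adjusted p = 0.544) nor its TE (0.24 ± 0.18, adjusted p = 0.547) was called.

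Of 24 other cyclins and cyclin-dependent kinases, 21 were tested in footprints, and 0 rose and 1 fell (median −0.02). CDK19, a kinase of the Mediator complex, fell to 33.8, 44.1 and 38.8 CPM with zotatifin, against 75.2, 47.7 and 56.6 CPM with vehicle (−0.64 ± 0.18, adjusted p = 0.029). It rests in part on the highest vehicle value: without vehicle library 1 the log2 change was −0.43 (adjusted p = 0.262), and the call was also lost without zotatifin library 1 or 3 and with DESeq2. Neither CDK19 RNA (−0.25 ± 0.16, adjusted p = 0.403) nor its TE (−0.36 ± 0.27, adjusted p = 0.566) was called. Of 18 regulators of G1 kinases, 17 were tested in footprints, with 0 rises and 1 fall (median 0.10). CUL1, the scaffold of the ubiquitin ligase that marks cyclin E and p27 for destruction, fell to 109, 93.2 and 122.9 CPM with zotatifin, against 158, 154 and 139 CPM with vehicle (−0.45 ± 0.13, adjusted p = 0.026). The RNA estimate of CUL1 was above 0 (0.18 ± 0.12, adjusted p = 0.467), and its TE change was −0.61 ± 0.18 (adjusted p = 0.070). The CUL1 call in footprints was lost without zotatifin library 1 or 2 or vehicle library 1 or 2 (adjusted p up to 0.142).

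Among 27 classical MYC targets, 26 were tested in footprints, of which 1 rose and 1 fell, with a median of 0.04. ODC1, the first enzyme of polyamine synthesis, fell to 260.3, 204 and 280.1 footprint CPM with zotatifin, against 362, 392 and 408 CPM with vehicle (−0.63 ± 0.11, adjusted p = 0.0010), under all 10 other settings too. ODC1 RNA was 505, 443 and 465 CPM with zotatifin and 507, 527 and 508 CPM with vehicle. These RNA values did not overlap either, but the change was not called (−0.13 ± 0.12, adjusted p = 0.606). BOP1, a ribosome assembly factor, rose to 132 ± 6.33 CPM with zotatifin, against 97.9 ± 11.1 CPM with vehicle (SD, n = 3 each; 0.43 ± 0.13, adjusted p = 0.039). The BOP1 call was lost with DESeq2 and without any 1 library but vehicle library 3 (adjusted p up to 0.233). BOP1 RNA was 99.2, 108 and 86.9 CPM with zotatifin and 81.0, 102 and 91.9 CPM with vehicle, with overlap. In RNA 0 of the 27 targets was called, and the median log2 change was 0.02, with values from −0.13 to 0.25. In TE 0 of 26 was called (median −0.02).

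Of the 2 remaining lists, none of 5 tested CDK inhibitors other than CDKN1B (median −0.10 in footprints) and none of 13 RB and E2F proteins (median 0.02) was called in footprints. RNA of the CDK inhibitors had a median of 0.41 over 7 genes, and RNA of the RB and E2F list a median of −0.13, with 12 of 13 estimates below 0. The median over all genes in RNA was −0.0023. Of the RB and E2F estimates, 7 of 13 were above 0 in footprints and 9 of 13 in TE (median 0.14). In TE the CDK inhibitors had a median of −0.22 over 5 genes. No list was tested as a whole. Across the 6 lists 0 genes were called in RNA and 0 in TE, in fits without a block. With the tumour as a block 8.66% of all genes were called in TE in place of 1.69%. The TE of the list genes under that block is not described here, so their count of 0 holds for the fit without it. The 6 calls in footprints were 6.32% of the 95 list genes tested, near the 7.14% called over all genes, so they do not set these lists apart.

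**Figure D4:**
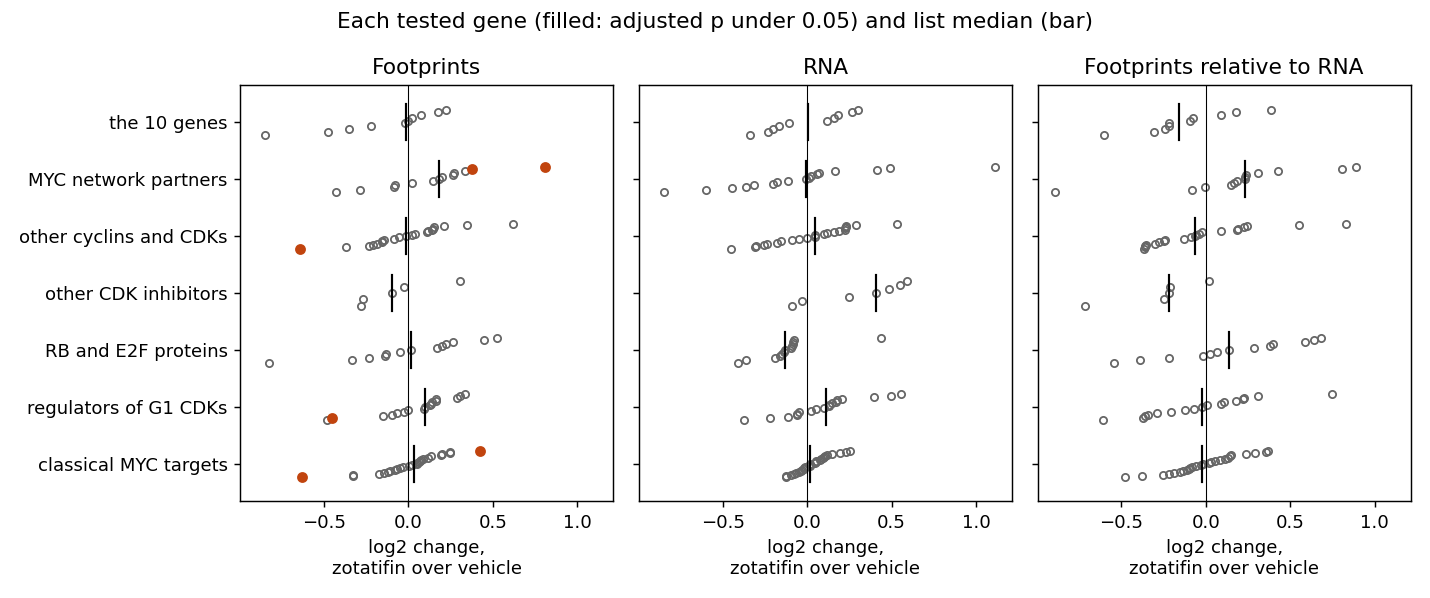
Log2 change, zotatifin over vehicle (x axis), of each tested gene by list (y axis) in footprints, RNA and TE. Filled points have an adjusted p under 0.05, and bars mark list medians. All 6 filled points are in footprints, MXD3 being the highest at 0.81 and CDK19 the lowest at −0.64.

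The genes whose pattern was most like that of MYC over the 12 libraries were NUDT1 (Pearson r = 0.943), FOXRED1 (0.915) and ACY1 (0.914). For CCND1 they were SOX9 (0.936), PTK2B (0.924) and ARHGEF35 (0.885), whose reads may be split with its near-identical copy ARHGEF5. The correlation was taken on log2 CPM centred within each assay, over 4888 other genes that averaged 50 counts or more in each assay. These are descriptions of the highest of many values over 12 libraries that share treatments and tumours.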

How the data were processed

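Per the column names and values, the authors deposited raw counts per transcript for footprints and RNA. In the authors' deposited comparison tables, RNA has a mean signal in normalised counts, a log2 fold change, a Wald score and p-values, and footprints have an estimate read as a natural log and an FDR (an adjusted p-value). Per the submitters' processing notes, cutadapt 2.3, UMI-tools, Bowtie2 2.3.5 and DESeq2 were used on hg38; the strand setting and the counted region are not stated there. Groups follow titles and column names; the treatment field of 6 samples contradicts its title, and the numeric prefix of the treated columns was taken for the development code of zotatifin. No column lacked a sample.

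Genes were kept by filterByExpr (minimum count 10, total 15), scaled by TMM and tested with edgeR 4.0.16 in R 4.3.3 (glmQLFit, robust, and glmQLFTest) within each assay, and for TE as the interaction of assay and treatment over 12 libraries. Standard errors derive from the F statistic. The fits were tested on simulated data. The simulated libraries were drawn independently, without a spread shared by the libraries of a tumour, so that step cannot speak to pairing in TE. Footprint and RNA libraries of 1 tumour number correlated at 0.216 to 0.439 (6 pairs) in deviations from group means, other numbers at −0.380 to 0.118, so the number marks a tumour; across treatments same numbers gave −0.0938 to 0.181 and were not taken as pairs. Named genes were the 10 genes, up to 4 called genes per pathway list and comparison, by smallest p, and the 3 genes most like MYC and CCND1. Members and lists were chosen with earlier results of these data known. Levels per coding length were planned but not computed, since no lengths were used here, and no protein sequences were used here. Alternatives were DESeq2 1.42.0, no filter, upper-quartile scaling, a replicate block, plain CPM and leaving out libraries. Nothing says that the 3 tumours of a group came from separate mice, so p-values measure the spread between these samples.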

Additional observations from a re-analysis of the deposited data

How the results depend on the processing

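None of the 10 genes was called in footprints, RNA or TE under any of the 10 other settings (DESeq2, no low-count filter, upper-quartile scaling, a block, and leaving out each library or tumour in turn). Of 300 recomputed log2 changes of these genes, 289 kept their direction and 11 turned round, all in footprints of 4 genes with estimates from −0.02 to 0.08. DESeq2 gave no adjusted p to MAX, CCND3, CCNE1 and CDK6 in footprints or to CCNE1 and CCNE2 in TE. Upper-quartile scaling gave 0.02 for CDKN1B (0.0172) and the replicate block −0.0015 for CDK6. Leaving out single libraries gave −0.11 to 0.060 for CDKN1B, −0.24 to 0.17 for CDK6, −0.083 to 0.090 for CCND3 and −0.059 to 0.16 for CDK2. Plain CPM moved none of 40 group means by more than 1 SD.

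The counts over all genes depended more on the settings. DESeq2 called 434 genes in footprints in place of 681 and 355 in RNA in place of 225. RNA gave 624 without a filter and 527 with the replicate block, and TE 819 with the tumour block in place of 160. Without single libraries the counts ran from 185 to 726 in footprints and from 11 to 396 in RNA, and without single tumours from 56 to 132 in TE. Footprints had 185 calls without vehicle 1, 415 without vehicle 3 and 438 without zotatifin 1. RNA had 11 without vehicle 1, 25 without vehicle 3, 48 without zotatifin 3, 56 without zotatifin 1 and 396 without vehicle 2. TE had 56 without vehicle 1, 57 without vehicle 3, 61 without zotatifin 1, 76 without vehicle 2 and 95 without zotatifin 3. The cause was not tested. The replicate block changed no call of the 10 genes. Depth limits CCNE1, CDK6, MAX and CCND3, which had under 100 footprints in every library.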
